A study of Homo sapiens with 8 samples.

Results

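Very wide accessible sites are the regions of 3000 bp or more in the 2 lists of sites that the authors made from ATAC-seq. In ATAC-seq the Tn5 transposase cuts and tags open DNA, and a site is a stretch where such cuts gather. The members were chosen by their width alone, taken as end minus start on the autosomes. There were 620 members among 13758 autosomal sites, or 14191 sites with chromosome X. Of the 620 members, 373 came from the list that the authors name for opening by the morphogens (opened sites) and 247 from the list they name for closing by p63 of sites that the morphogens open (p63-closed sites). These names are the authors' own, and what each list was compared on is not given beyond them. No autosomal site was in both lists. On chromosome X, which was left out, 10 opened and 0 p63-closed sites were as wide. Far fewer p63-closed than opened sites of any width were listed on that chromosome. These counts therefore do not show a difference between the lists.

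The series holds 8 samples, 2 in each of 4 groups, all of H9, an established line of human embryonic stem cells. The first group is wild-type cells at day 0. Wild-type and p63-/- cells were collected at day 7 in 1 uM retinoic acid and 5 ng/ml BMP4, which turn these cells into surface ectoderm. Cells with a TetO:Tp63+/- transgene were taken at day 0 after 2 days of doxycycline at 2 ug/ml; neither list is attached to them. All groups come from 1 cell line, and the sources used here do not say whether the p63-/- and transgenic cells are single clones. In the sample descriptions, the list of opened sites is named for wild type at day 0 and day 7, and that of p63-closed sites for wild type and p63-/- at day 7. A site has a position and a number in the authors' catalogue of candidate regions, but no signal, count or p-value, so nothing below is a value per culture and no test between cultures was made.

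Accessible sites mark promoters and enhancers, where transcription factors displace nucleosomes. Most span a few nucleosomes at most; wider ones are known at the promoters of developmental regulators and where several elements adjoin, since a peak caller joins neighbouring signal into 1 region. Retinoic acid acts through nuclear receptors that bind direct repeats of a short motif, and the HOX genes at the 3′ end of each cluster and the CYP26 enzymes that degrade retinoic acid are its textbook targets. BMP4 signals through SMAD proteins, and p63 is the p53-family factor on which stratified epithelium depends.

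Gene starts that lie in 3 opened members are shown by their promoters, because they belong to a textbook retinoic acid target and to the 2 places where members lay closest together. These are CYP26A1, the retinoic acid hydroxylase, HOXA2, a hindbrain and neural crest patterning factor, and HAND2, a basic helix-loop-helix factor of heart, limb and branchial arch. The sequences are RefSeq's on GRCh38.p14, 5′ to 3′ on the gene's own strand, from 250 bases before the start to 50 bases after it. CYP26A1 is on the + strand, HOXA2 and HAND2 on the - strand. Capitals mark a direct repeat of the retinoic acid receptor motif with 5 bases between its copies.
CYP26A1, second RefSeq start: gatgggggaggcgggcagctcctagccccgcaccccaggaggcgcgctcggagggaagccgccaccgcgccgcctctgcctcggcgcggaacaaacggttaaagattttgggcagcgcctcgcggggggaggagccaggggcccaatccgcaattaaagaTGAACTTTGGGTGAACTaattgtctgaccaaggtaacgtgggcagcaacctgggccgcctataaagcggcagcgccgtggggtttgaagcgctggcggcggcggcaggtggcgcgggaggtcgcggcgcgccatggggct
HOXA2: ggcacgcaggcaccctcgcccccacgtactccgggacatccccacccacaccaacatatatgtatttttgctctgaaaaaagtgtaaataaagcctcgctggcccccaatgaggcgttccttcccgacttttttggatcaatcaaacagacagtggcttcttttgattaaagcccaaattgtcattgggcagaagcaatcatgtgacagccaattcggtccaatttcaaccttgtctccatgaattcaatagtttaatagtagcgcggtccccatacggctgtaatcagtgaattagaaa
HAND2: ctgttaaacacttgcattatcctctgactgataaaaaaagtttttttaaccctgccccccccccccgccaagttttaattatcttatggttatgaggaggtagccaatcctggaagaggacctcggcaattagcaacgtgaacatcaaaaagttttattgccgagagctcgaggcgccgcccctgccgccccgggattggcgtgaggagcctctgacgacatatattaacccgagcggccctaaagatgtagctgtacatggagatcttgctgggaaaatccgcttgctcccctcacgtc

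Of the 2 CYP26A1 windows, that of the second RefSeq start held the repeat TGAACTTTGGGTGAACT, read on the opposite strand. Its first base was at position -90 from that start. The search took AGGTCA as a copy of the motif. It also took the variant AGTTCA, the further variant GGGTCA and the last variant GGTTCA. Both strands were read, for direct repeats with 1, 2 or 5 bases between the copies. A repeat contains its single copies, so the shares overlap. A repeat with 5 bases between was found in 31 of 35116 promoters in the RefSeq table, or 0.0883%, with 2 bases in 0.0399% and with 1 base in 0.131%. A single copy was found in 38.6%. The window of the first CYP26A1 start, not printed, and the HOXA2 and HAND2 windows held no copy. This says only that these letters are absent from these windows. The second-start window of CYP26A1 also had TATAAA at position -31 on its own strand, and the first-start window had none. That sequence was held somewhere by 7.33% of promoters. GC content was 67.7% in the second-start window and 60.3% in the first-start window, both above the table's median of 58.7%. HOXA2 with 46.3% and HAND2 with 50.3% lay below it.

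The opened member at CYP26A1 was 3645 bp wide, at chr10:94831482-94835126 on hg19, the build of both lists. Both RefSeq starts of the gene lay in it. It was the wider of 2 listed sites within 100 kb of CYP26A1, both opened. Gene positions on hg19 are from general knowledge of that assembly, to the nearest kb, since no annotation of the build was used; other genes can lie closer to a site than those named, and no exon or intron is assigned.

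The 3′ end of the HOXA cluster held the closest group of members. There were 3 opened members there, and in no other place did 3 lie with neighbouring centres within 100 kb. The outermost, 3284 bp, lay at chr7:27118276-27121559, about 10 kb outside the cluster. HOXA2 starts in the innermost, 3970 bp at chr7:27140485-27144454. The 4 further listed sites within 50 kb, on the side of the rest of the cluster, were 1485 to 1893 bp wide, and 1 of them was p63-closed. In the other HOX clusters, with 100 kb on each side, HOXB had 14 listed sites of at most 2761 bp, HOXC had 6 of at most 2669 bp, and HOXD had 0.

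HAND2 was the place of the closest pair, with centres 12.2 kb apart. The opened member of 3532 bp at chr4:174449571-174453102 contained the start of the gene, and the opened member of 3294 bp at chr4:174437521-174440814 lay about 6 kb beyond its 3′ end. Between them was an opened site of 2831 bp, and a further one of 2213 bp lay outside the pair. Listed sites covered 62.0% of the 15582 bp from the first member to the last, all of them opened.

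**Figure D1:**
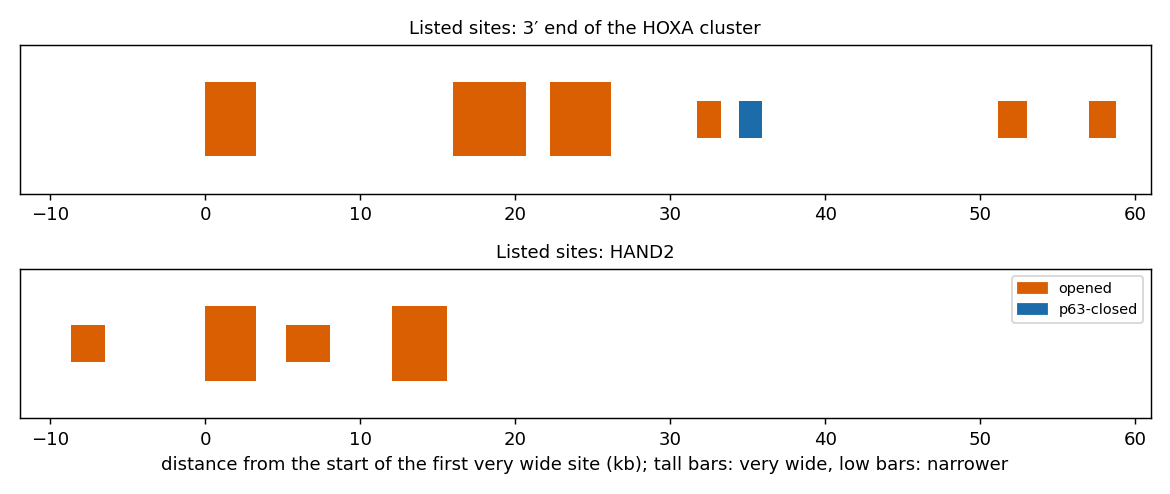
Listed sites at the 3′ end of the HOXA cluster (upper panel) and at HAND2 (lower panel), by distance in kb from the start of the first very wide site; tall bars are sites of 3000 bp or more, low bars narrower sites, orange opened and blue p63-closed. All 3 HOXA members and both HAND2 members are opened, and the single p63-closed site shown is 1485 bp wide.

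Of the other 4 closest pairs, 2 were made of p63-closed members inside a long gene. In VPS13B, which encodes a lipid transport protein, they were 4484 bp (chr8:100697872-100702355) and 3287 bp (chr8:100716111-100719397) wide, with centres 17.6 kb apart. In PTPRD, a receptor protein tyrosine phosphatase, they were 3177 bp (chr9:9877097-9880273) and 3281 bp (chr9:9903524-9906804) wide, 26.5 kb apart. The remaining 2 pairs had a member of each list. The pair 15 to 41 kb from PKNOX1, a homeodomain partner of PBX and HOX proteins, had an opened site of 3874 bp at chr21:44349123-44352996 and a p63-closed site of 3707 bp at chr21:44375473-44379179. The pair 147 to 173 kb from ZNF703, a transcriptional corepressor gene, had an opened site of 3308 bp and a p63-closed site of 3398 bp, between 37376420 and 37406336 on chromosome 8. At kb precision, the span of ZNF703 begins inside a further p63-closed member outside the pair, 4376 bp at chr8:37551836-37556211. In all there were 23 pairs and the HOXA group, holding 49 members. Both sites were opened in 9 pairs and p63-closed in 6, and 8 pairs had 1 of each. Of all 620 members, 373 were opened and 247 p63-closed. Over all autosomal sites the nearest listed site was of the same list for 62.2%. The split of the pairs is therefore not read as a result about members.

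Most members lay not far above the threshold, with 380 of 620 under 3500 bp. Very wide sites made up 4.81% of opened sites (95% interval 4.35 to 5.31%) and 4.11% of p63-closed sites (3.63 to 4.65%). They covered 1.33 Mb, or 10.0% of the bases of the autosomal opened list, and 0.852 Mb, or 8.61%, of the p63-closed list. The median member was 3374 bp wide among opened sites (quartiles 3172 and 3702 bp) and 3347 bp among p63-closed sites (3124 and 3618 bp). Over all autosomal sites the medians were 1603 and 1531 bp. Intervals here and below are exact (Clopper-Pearson) and cover counting error only. Sites gather along the genome and are not independent units, so the intervals are likely too narrow. There was no gap in width at the threshold, where the 8 narrowest members measured 3000 to 3004 bp and the 8 widest sites outside measured 2992 to 2998 bp.

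Among the 620 members, 39.8% were p63-closed (36.0 to 43.8%), against 43.6% of all autosomal sites. The interval reaches that background at 3000 bp, but not at the neighbouring thresholds, with 38.8% (36.4 to 41.3%) from 2500 bp on and 35.8% (29.8 to 42.3%) from 3500 bp on. By width class of the members, it was 42.4% from 3000 to under 3500 bp (380 sites), 39.0% from 3500 to under 4000 bp (172 sites), 23.7% from 4000 to under 4500 bp (38 sites, 11.4 to 40.2%) and 33.3% from 4500 bp on (30 sites, 17.3 to 52.8%). The 68 sites of 4000 bp or more held 19 p63-closed sites, 27.9% (17.7 to 40.1%). A share below the background was also found in narrower sites. Over the classes under the threshold it was 48.5% under 1000 bp (46.1 to 50.9%), 45.4% from 1000 to under 1500 bp (44.0 to 46.9%), 41.5% from 1500 to under 2000 bp (40.0 to 43.1%), 43.4% from 2000 to under 2500 bp (41.2 to 45.5%) and 38.1% from 2500 to under 3000 bp (35.0 to 41.3%).

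**Figure D2:**
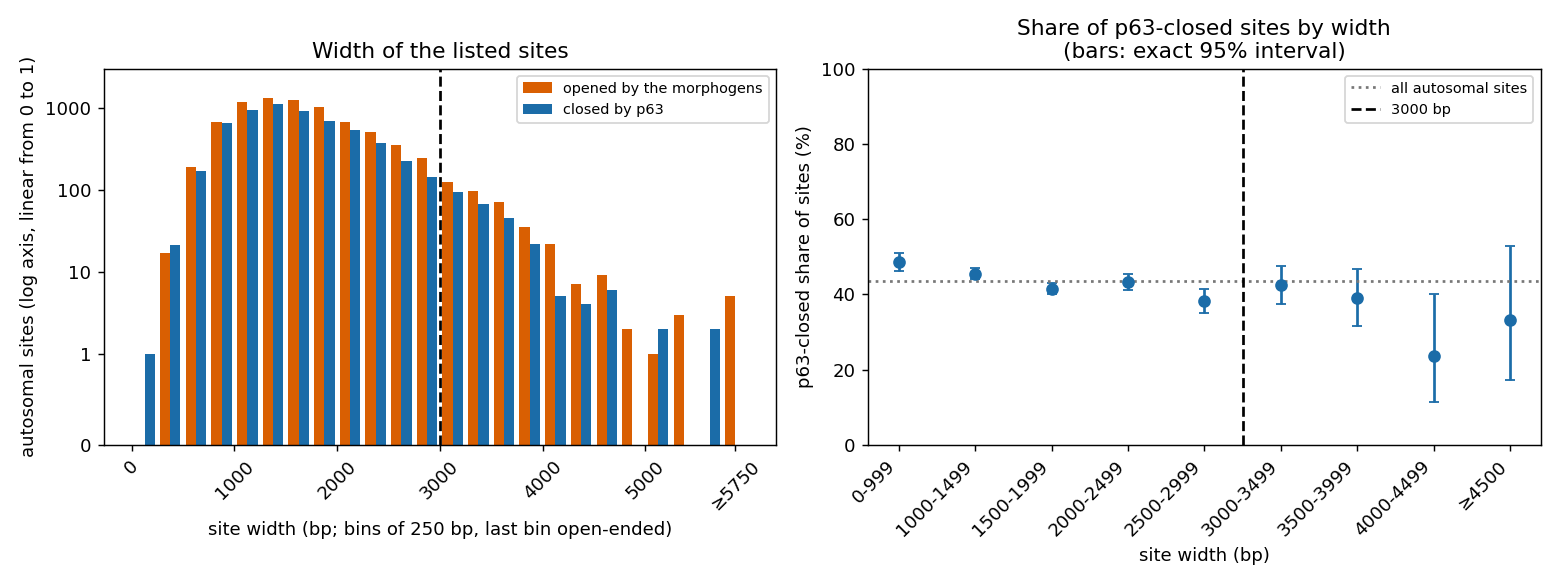
Left, number of autosomal sites by width in bp (bins of 250 bp, counts on a log axis that is linear from 0 to 1) for opened and p63-closed sites, with 3000 bp as a dashed line. Right, p63-closed share of sites in percent by width, with exact 95% intervals and the share of all autosomal sites, 43.6%, as a dotted line; the classes under 1500 bp lie above that line, and the intervals of 1500 to under 2000, 2500 to under 3000 and 4000 to under 4500 bp lie below it.

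The 5 widest members were all opened sites close to a centromere. The widest were on chromosome 7, 12362 bp at chr7:61779919-61792280 and 11409 bp at chr7:61740122-61751530, with centres 40.3 kb apart and 726 and 686 kb from the assembly's centromere gap. Next came a site of 10232 bp at chr8:43818484-43828715, 10.3 kb from the gap. The fourth, 6792 bp at chr21:10708937-10715728, lay 572 kb from it, and the fifth, 6108 bp at chr20:25838613-25844720, lay 525 kb from it, inside FAM182B, a gene of a family with related copies near that centromere. The centromere gap is the block of unresolved sequence that hg19 has at each centromere, and DNA beside it is rich in satellite and duplicated repeats whose copies short reads cannot always tell apart. Whether repeats or read placement bear on the width of these sites was not tested.

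Within 1 Mb of a gap there were 11 members, 1.77% of all (0.889 to 3.15%), against 0.858% of all autosomal sites. Of these, 10 were opened and 1, on chromosome 3 with 3399 bp, was p63-closed. For opened members alone the share was 2.68% (1.29 to 4.88%) against 1.25% of all opened sites. The range of 1 Mb was chosen after seeing the data. For both lists together, the members' interval included the share of all sites at 500, 2000 and 5000 kb. The 11 members were 10 of the 97 opened sites and 1 of the 21 p63-closed sites in that range, and no p63-closed site there was wider than 3399 bp. Farther than 1 Mb from a gap the widest sites of the lists were alike, with 5439 bp among opened and 5624 bp among p63-closed sites. Without the 11 members the p63-closed share was 40.4% (36.5 to 44.4%). Gap positions were also from general knowledge of hg19, and 0 listed sites fell inside a gap.

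**Figure D3:**
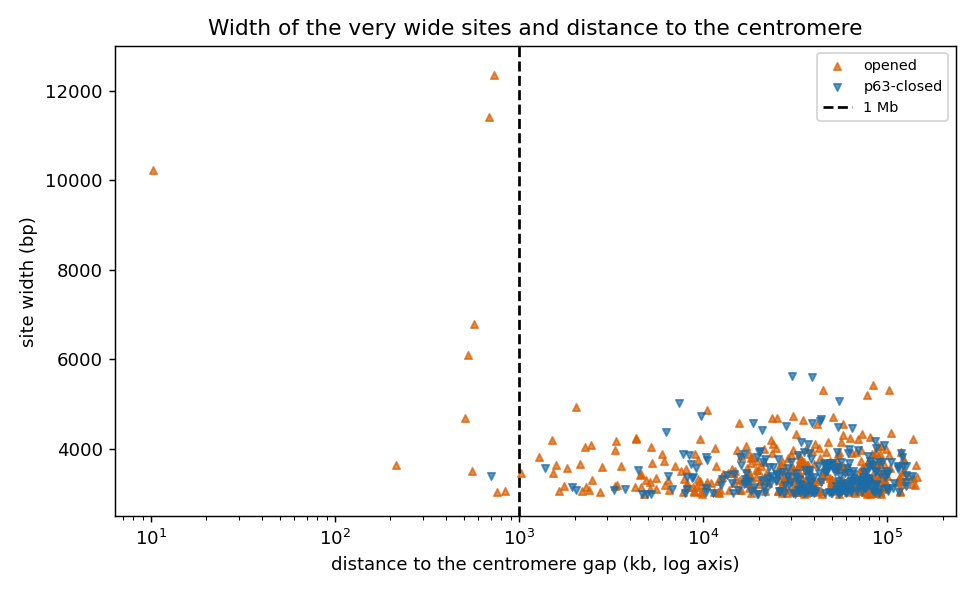
Width in bp of each of the 620 very wide sites against the distance in kb (log axis) from its centromere gap; triangles pointing up are opened sites and triangles pointing down p63-closed sites. The 5 widest sites, 6108 bp and more, are all opened and all left of the dashed line at 1 Mb.

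The next widest opened members were farther from centromeres, the tenth 2040 kb from its gap and the sixth to ninth at least 44638 kb. The sixth, 5439 bp at chr5:133128843-133134281, lay 157 kb from C5orf15. The seventh, 5327 bp at chr9:2724509-2729835, lay inside KCNV2, a subunit of voltage-gated potassium channels. QKI, an RNA-binding splicing regulator, starts in the eighth, 5324 bp at chr6:163833602-163838925. The ninth, 5198 bp at chr2:14882776-14887973, lay 92 kb from LRATD1. The tenth, 4937 bp at chr21:16327517-16332453, ended about 1 kb from NRIP1, a corepressor that binds nuclear receptors, the retinoic acid receptors among them. Of the 10 widest opened members, 5 were thus beside centromeres. The genes named for them were picked near these sites after the sites were seen, so closeness to a gene is not a result here.

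The 10 widest p63-closed members all lay at least 7350 kb from a gap. The widest, 5624 bp at chr11:21341218-21346841, lay inside NELL1, which encodes a secreted protein of bone formation. The second, 5617 bp at chr9:89212529-89218145, and the eighth, 4585 bp at chr9:89378875-89383459, lay 341 and 176 kb from GAS1, a Hedgehog co-receptor. Both had an opened site as nearest neighbour, at 14.5 and 24.4 kb. The third, 5062 bp at chr5:103867223-103872284, had none of the genes looked up within 400 kb, and neither had the fifth, 4745 bp at chr8:34114654-34119398. The fourth, 5025 bp at chr10:49604791-49609815, touched, at kb precision, the span of MAPK8, the gene of the stress kinase JNK1. The sixth, 4662 bp at chr2:138992198-138996859, lay 218 kb from HNMT, a histamine methyltransferase, and the seventh, 4624 bp at chr6:15904500-15909123, 220 kb from MYLIP, a ubiquitin ligase. The ninth, 4576 bp at chr16:56952331-56956906, was 2 kb from SLC12A3, a sodium chloride transporter, and the tenth, 4525 bp at chr3:121658136-121662660, lay in SLC15A2, a peptide transporter.

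A list of 87 loci of surface ectoderm biology was then searched, each with 100 kb on either side. It held 13 members, 2.10% of all (1.12 to 3.56%), against 1.72% of all autosomal sites, which is near the background. Listed sites of any width were found at 70 of the loci and members at 11. Of the 13 members, 9 were opened and 4 p63-closed.

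Members at the 17 loci of retinoic acid signalling and axial patterning were all opened. There were 6, at 4 loci, and 3 of them are the HOXA group. Of the 80 listed sites of any width at these loci 51 were opened, or 63.8%. Beside the HOXA and CYP26A1 members, a site of 3579 bp at chr15:37348204-37351782 lay in MEIS2, a TALE homeodomain cofactor of HOX proteins, where 11 sites were listed and 6 were p63-closed. A site of 3021 bp at chr9:137345955-137348975 lay 14 kb from RXRA, the shared partner of retinoic acid receptors. The receptor genes RARA and RARB had 4 and 6 listed sites, of at most 2616 and 1980 bp, and RARG had 0. DHRS3, a retinal reductase, had 6 of at most 2791 bp, and CYP26B1 had 2 of at most 2659 bp.

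At the 11 epidermal transcription factor loci there were 3 members, 2 of them p63-closed, beside 22 p63-closed sites among all 37 listed there, or 59.5%. TP63 itself had a p63-closed member of 4096 bp at chr3:189507029-189511124, inside the gene, which contained its internal start, from which the shorter isoforms without the first activation domain are made. It was the widest of 6 listed sites there, 5 of them p63-closed. TFAP2A, an AP-2 factor of surface ectoderm, had a p63-closed member of 3043 bp at chr6:10314116-10317158, 80 kb away, and all 3 of its listed sites were p63-closed. GRHL2, a grainyhead factor of epithelial junction genes, had an opened member of 3287 bp at chr8:102613697-102616983 inside the gene, among 8 sites of which 6 were opened. The loci of GATA3, KLF5 and TFAP2C had listed sites of at most 2949, 2281 and 2321 bp, and so no member.

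The other 4 members at these loci were at 4 separate loci. TBX3, a T-box repressor, had a p63-closed member of 3327 bp at its 3′ end, chr12:115104791-115108117. FGFR2, a receptor of fibroblast growth factors, had a p63-closed member of 3737 bp at chr10:123453835-123457571, 96 kb away. NOG, the BMP antagonist noggin, had an opened member of 3349 bp at chr17:54646662-54650010, 21 kb away, and was the only 1 of the 10 BMP pathway loci with a member. Within 100 kb of the BMP target ID4 an opened site, chr6:19757183-19760178, reached 2996 bp, just under the threshold. NANOG, a pluripotency factor, had an opened member of 3734 bp at chr12:8002679-8006412, 54 kb away. HAND2 was not on the list. No member was found at the 8 loci of keratins and cadherins, the 5 of mesenchymal factors or the 8 of forkhead and Iroquois genes, which had only 15, 7 and 7 listed sites, too few to read an absence from at a share of 4.51%.

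Very wide sites were found on every autosome. The share of sites that were very wide, 4.51% over all (4.17 to 4.87%), was highest on chromosome 11, with 42 of 666 sites or 6.31% (4.58 to 8.43%), and on chromosome 21, with 11 of 175 or 6.29% (3.18 to 11.0%). It was lowest on chromosome 19, with 4 of 212 or 1.89% (0.516 to 4.76%), chromosome 13, with 14 of 555 or 2.52% (1.39 to 4.20%), and chromosome 3, with 33 of 1051 or 3.14% (2.17 to 4.38%). The intervals of chromosomes 3, 11 and 13 did not include the overall share, and those of the other 19 did. With 22 intervals side by side, some can miss it by counting error alone. The 4 members of chromosome 19 were all opened, on a chromosome with 28.8% of its sites p63-closed. On chromosome 20 there were 12 opened and 2 p63-closed members, which is 7.19% of its opened and 1.69% of its p63-closed sites. The order was reversed on several other chromosomes. Chromosome 21, for example, had 6 opened and 5 p63-closed members, 5.22% of its opened and 8.33% of its p63-closed sites. Chromosome 7 had the highest number of opened members after chromosomes 1 and 2, with 31, among them the HOXA group and the pair beside the centromere.

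**Figure D4:**
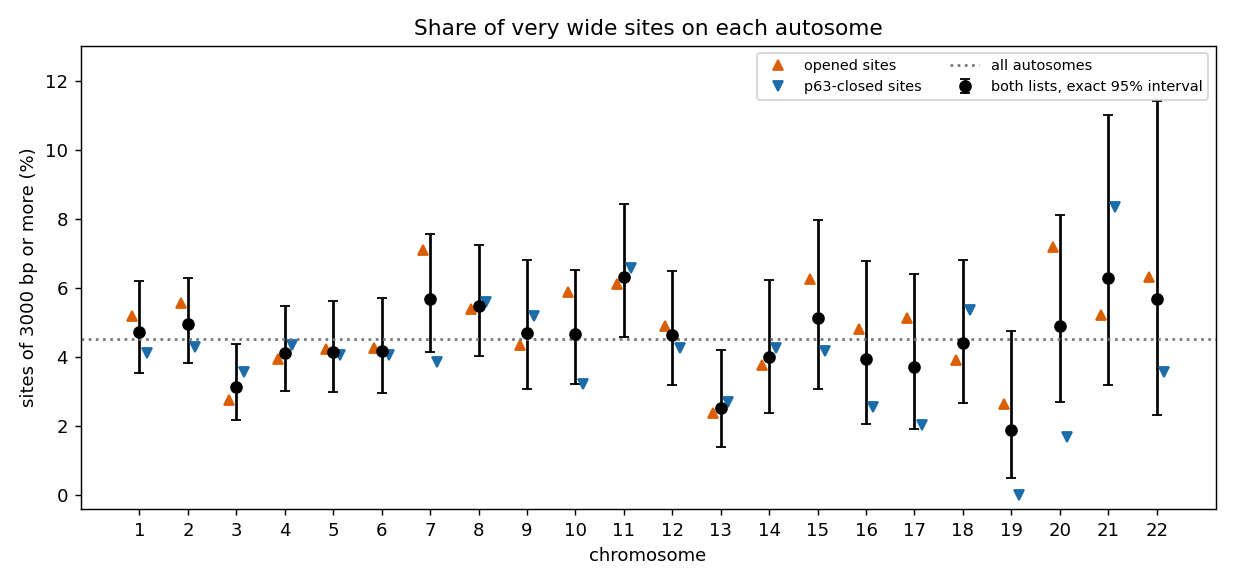
Percent of the listed sites of each autosome that are 3000 bp or more: black points with exact 95% intervals for both lists together, orange triangles for opened and blue triangles for p63-closed sites. The dotted line is the share over all autosomes, 4.51%, which the intervals of chromosomes 3, 11 and 13 miss.

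Farther out, the surroundings of the members were close to those of listed sites in general. Another listed site lay within 50 kb, centre to centre, of 55.0% of members (51.0 to 59.0%), and of 55.0% of all autosomal sites. The median distance to the nearest listed site was 43.2 kb for members and 41.3 kb for all sites. The nearest site was of the same list for 63.9% of members (60.0 to 67.7%) against 62.2%. Another member lay within 100 kb of 7.90% (5.90 to 10.3%) against 7.57%. In the last 5 Mb before the last listed site of the long arm lay 4.52% of members (3.02 to 6.46%) against 3.93%. That share was 5.90% for opened members (3.73 to 8.79%) and 2.43% for p63-closed members (0.897 to 5.21%), beside 5.12% and 2.40% of all sites of each list. Each of these shares was near its background. In the last 2 Mb, however, lay 2.74% of members (1.61 to 4.35%) against 1.48% of all sites.

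In 3 measures of the neighbourhood the interval of the members missed the background. The nearest listed site was itself very wide for 40 members, 6.45% (4.65 to 8.68%), against 4.58% of all autosomal sites. Where 2 members are each other's nearest site both are counted, and the lower end of this interval lay only just above the background. At the shortest distances members had fewer neighbours. Another listed site lay within 5 kb, edge to edge, of 8.55% of members (6.47 to 11.0%) against 13.3% of all sites, and the entry before or after in the authors' catalogue was also listed for 2.74% of members (1.61 to 4.35%) against 5.34%. By list the latter share was 2.95% of opened members (1.48 to 5.22%) against 4.95% of all opened sites, which that interval includes, and 2.43% of p63-closed members (0.897 to 5.21%) against 5.85%. Where both of 2 consecutive entries were listed, the gap between them had a median of 813 bp over 377 pairs, and of 2972 bp over the 18 pairs with a member. Within 20 kb, edge to edge, the shares were 32.7% and 34.8%. Whether the peak caller's joining of signal has a part in this was not tested. Between the listed sites before and after a site, the median was 1506 bp per catalogue entry for members and 1481 bp for all sites. With the nearest listed site at a median of 43.2 kb from members, these values do not give the density within 5 kb.

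**Figure D5:**
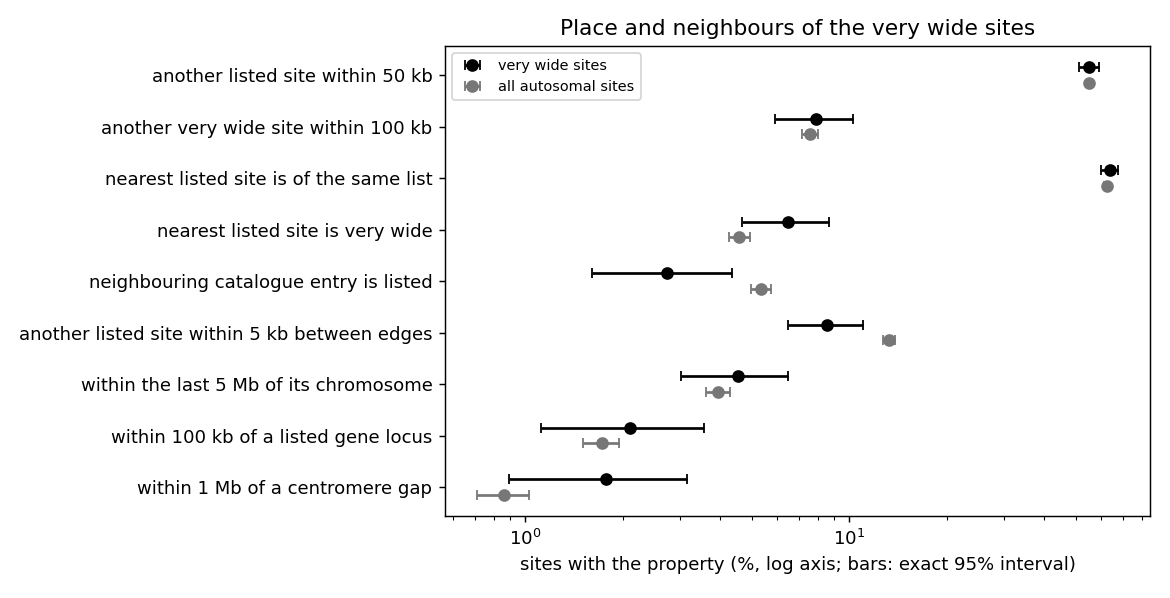
Percent (log axis) of the 620 very wide sites (black) and of all 13758 autosomal sites (grey) that have each property of place or neighbourhood, with exact 95% intervals. The black interval lies wholly below the grey one for a listed neighbouring catalogue entry and for another site within 5 kb, and overlaps it for the other properties shown.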

How the data were processed

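The values are start and end positions in bp, on hg19, of the sites in the authors' 2 deposited lists, which hold no header and no score. Per the submitters' processing notes, reads and sites went through Bowtie2, SAMtools, FastQC, MACS2 and DESeq2. Versions, thresholds, the part each tool had and whether replicates were pooled are not stated there. Read depth is therefore unknown, and calls made by other settings could join or divide sites and so change which are very wide. Width was end minus start, and printed starts are 1-based. Distances run between centres unless edges are named. Shares over members stand beside the same share over all autosomal sites, members included, with exact 95% intervals and no test.

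Named sites are the 10 widest of each list, groups of 3 or more members and the 5 closest pairs, members within 100 kb of 87 fixed loci, and sites next to the threshold. The members and lists were chosen with earlier results of these data known. Spans of 106 genes, those near the named sites after the sites were seen, were written from general knowledge of hg19 and searched within 400 kb of the widest sites; all 106 matched the chromosome in the RefSeq table (GRCh38.p14), and 89 matched its length within 5 kb. The gap of 18 of 22 autosomes lay in the longest stretch without a listed site. Promoter sequences were looked up for 5 genes and used for 3. The gene content of 1 named site is not reported here. The counting functions were checked on simulated data. Python 3.11.15, numpy 2.4.6, scipy 1.17.1 and pandas 2.3.3 were used.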

Additional observations from a re-analysis of the deposited data

How the results depend on the processing

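No paired analysis was possible because a listed site has a position and no value in any sample, so leaving out a replicate was not possible either, and depth is unknown. Of 29 alternatives, 12 stayed within the interval of the reported share and 17 moved out of it, mostly because the setting sets the share itself. Very wide sites were 12.4, 1.99 and 0.632% of opened sites and 10.2, 1.43 and 0.316% of p63-closed sites with thresholds of 2500, 3500 and 4000 bp. The p63-closed share of members was 38.8% from 2500 bp (36.4 to 41.3%), 35.8% from 3500 bp (29.8 to 42.3%) and 27.9% from 4000 bp on (17.7 to 40.1%), all below the 43.6% of all sites; the cause was not tested. Another listed site lay within 20 kb of 29.0% of members and within 100 kb of 73.4% (all sites 32.6 and 73.4%), and another member within 50 kb of 4.35% and within 500 kb of 28.1% (all sites 4.32 and 25.2%). The last 2 Mb held 2.74% (1.61 to 4.35%) and the last 10 Mb 8.06% of members (all sites 1.48 and 7.83%). Within 500, 2000 and 5000 kb of a centromere gap lay 0.323, 3.39 and 8.06% (all sites 0.276, 2.33 and 6.77%). The intervals were 0.0391 to 1.16%, 2.11 to 5.13% and 6.04 to 10.5%, and each included its share of all sites. At the gene loci the share with 250 kb on each side was 2.58%, below the 3.15% of all sites, while with 100 kb it was above. The centromere, nearest-member and 5 kb comparisons were chosen after seeing the data. The comparisons of neighbouring catalogue entries were not planned either, and no alternative setting was run for them. GC content, TSS overlap and motifs of the sites were not run, for want of a genome of the files' build.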
